A study of Saccharomyces cerevisiae with 8 samples.

Results

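The genes described are the intron-containing genes of budding yeast, Saccharomyces cerevisiae, outside the families of ribosomal protein genes. They number 149 of the 6569 genes with a deposited signal. The deposited gene models gave 265 genes at least 2 exons. From these, 94 genes for cytosolic ribosomal proteins were left out by name, as were 22 others, among them HAC1, the helicase gene DBP2 and meiotic genes with introns. No measured level was used to choose the members. All but 1 of them, YLR445W, had enough signal to be tested in wild-type cells.

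Introns are cut out of the primary transcript by the spliceosome, which reads a short sequence at the intron's start, a branch site near its end and the last bases before the next exon. Few budding yeast genes carry an intron, and most of these carry a single one near the start of the gene. Ribosomal protein genes are the main carriers and are transcribed very actively in growing cells, so a large share of the work of the spliceosome goes to their transcripts. The other carriers serve many processes, from actin and tubulin function to vesicle transport, protein tagging with ubiquitin, and mitochondria.

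Poly(A) RNA from 8 cultures was sequenced with strand-specific libraries. Wild-type BY4741 (MATa, with ura3-delta-0 and his3-delta-0 as well as met15-delta-0 and leu2-delta-0) was grown at 30 °C in YPD to an OD of 0.5 and was sampled untreated or after 10 or 60 min with 200 ng/mL rapamycin, which inhibits the growth-promoting kinase complex TORC1, with 2 biological replicates per group. The second experiment set 1 library of prp4-1 cells with IFH1 behind the GAL1 promoter (pGAL1-IFH1), labelled as having the IFH1 transcription factor lowered by about 50%, against 1 library of a MATalpha prp4-1 strain that also carries mutant alleles of ade2, leu2, ura3 and his3. Both were grown at 26 °C in YPD, both carry a mutation in the spliceosomal protein Prp4, and IFH1 serves ribosomal protein genes. The pGAL1 promoter is not induced by the glucose of YPD, so lowered IFH1 comes with a change of promoter, and the 2 strains are single cultures. The title of the study names competition between transcripts for splicing machinery as its question. The values are signal per gene on the sacCer3 build, which do not separate spliced from unspliced RNA, and the number of reads behind them is unknown.

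The labels were checked against the data. IFH1 had 86.14 in pGAL1-IFH1 cells, against 154.1 in prp4-1 cells. HMRA1, a member from the silent mating cassette whose sequence is also present at the expressed locus of MATa cells, had 181.1 to 283.9 in the 6 MATa libraries, 0 in pGAL1-IFH1 cells and 1.368 in prp4-1 cells, so it has no ratio in the prp4-1 pair. The scaled signal of a library, summed over genes, ran from 2025663 to 3319861. The name rule kept 4 genes that sit close to the ribosome or to small nucleolar RNA: ASC1 (a core protein of the small ribosomal subunit), YML6 (a mitochondrial ribosomal protein), and SNR17A and SNR17B (both for the U3 small nucleolar RNA). SNR17A had 16.72 and 38.84 in the 10 min libraries and SNR17B 14.42 and 31.13. Without these 4 genes no count of called members below moved by over 1.5 times.

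The introns of the members were short. Their 155 introns (143 members had 1 and 6 had 2) had a median length of 97 bases and ran from 52 to 751 bases, and 129 of 155 (83.2%) were under 200 bases. The 97 introns of ribosomal protein genes had a median of 409 bases and ran from 230 to 561, with 0 of 97 under 200. Of the member introns, 142 lay within the reading frame and 8 upstream of the start codon, and for 5 the R64 reference gave no place.

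**Figure D1:**
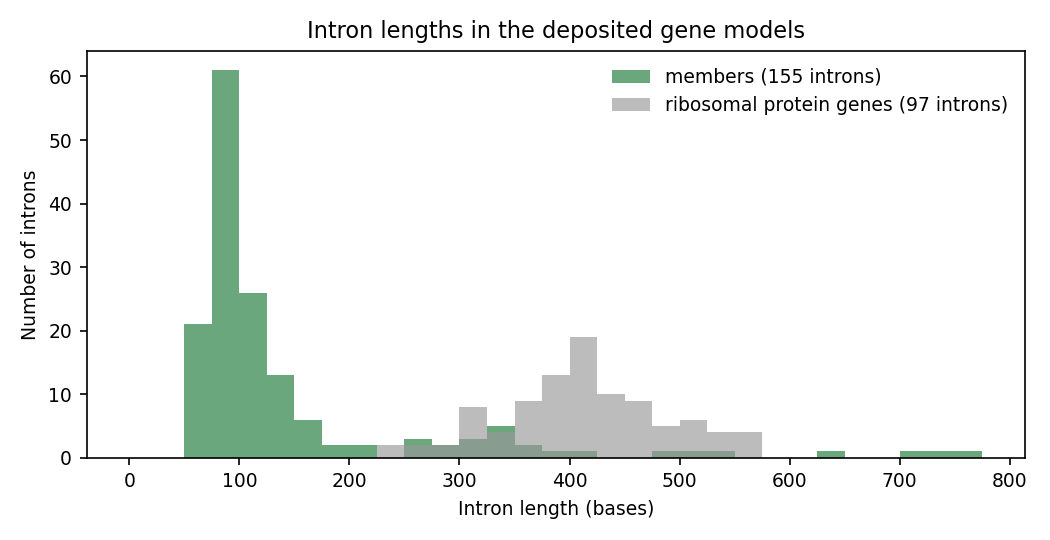
Number of introns (vertical axis) by intron length in bases (horizontal axis) for members and for ribosomal protein genes. Member introns cluster around their median of 97 bases, while those of ribosomal protein genes all lie at 230 bases or more.

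The splice signals of the members were close to those of ribosomal protein genes at the start and more varied at the branch site. The start GTATGT stood in 117 of 155 member introns (75.5%) and in 75 of 97 ribosomal protein gene introns (77.3%). The exact branch motif TACTAAC, searched on the transcribed strand, was in 115 of 155 member introns (74.2%) and in 90 of 97 of the others (92.8%), while windows of the same length just downstream of each intron held it in 1 of 155 (0.645%) and 0 of 97. With the first letter left free (ACTAAC, which overlaps TACTAAC), it was in 140 of 155 (90.3%) and in 95 of 97 (97.9%), against 4 of 155 (2.58%) and 4 of 97 (4.12%) of the downstream windows. All 155 member introns ended in AG, of which 78 in TAG, 66 in CAG and 11 in AAG, a form that 0 of 97 ribosomal protein gene introns had. From the adenosine near the end of TACTAAC to the last intron base there were 30 bases at the median in members (10 to 155) and 37.5 in ribosomal protein genes (16 to 82).

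The following introns belong to members whose levels are described below, chosen after their values were seen. They are read from the R64 genome at the sacCer3 coordinates of the models, 5′ to 3′ on the transcribed strand. Capitals mark the first 6 bases, TACTAAC where it occurs and otherwise ACTAAC, and the last 3 bases. The introns of RPO26 (chrXVI:911277-911352, plus strand), GIM5 (chrXIII:82291-82373, plus strand) and TMA20 (chrV:166772-166874, minus strand) come from members that fell under rapamycin and have all 3 usual signals.
RPO26: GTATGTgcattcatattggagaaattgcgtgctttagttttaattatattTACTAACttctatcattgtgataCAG
GIM5: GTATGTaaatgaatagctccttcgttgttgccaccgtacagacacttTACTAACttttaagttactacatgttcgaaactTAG
TMA20: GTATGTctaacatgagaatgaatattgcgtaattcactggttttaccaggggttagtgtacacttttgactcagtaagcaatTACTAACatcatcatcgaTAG
YSC84 (chrVIII:138241-138408, minus strand) rose and has the usual signals too, while RRT8 (chrXV:240948-241025, minus strand) and CMC4 (chrXIII:652776-652847, minus strand) rose and depart from them at the start and at the first letter of the branch motif.
YSC84: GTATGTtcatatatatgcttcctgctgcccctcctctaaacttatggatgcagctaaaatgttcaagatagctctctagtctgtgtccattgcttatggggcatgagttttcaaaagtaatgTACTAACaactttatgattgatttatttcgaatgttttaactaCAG
RRT8: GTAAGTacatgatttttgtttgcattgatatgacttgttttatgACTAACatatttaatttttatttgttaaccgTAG
CMC4: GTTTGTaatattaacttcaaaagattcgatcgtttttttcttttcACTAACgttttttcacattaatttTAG
The 5 members with 2 introns and a ratio were higher in pGAL1-IFH1 than in prp4-1 cells, as described further on. TAD3 has its introns at chrXII:766182-766249, minus strand, and chrXII:766074-766129, minus strand, and neither holds TACTAAC. In SUS1 they are at chrII:462210-462289, plus strand, and chrII:462430-462499, plus strand, and the first has neither motif.
TAD3 intron 1: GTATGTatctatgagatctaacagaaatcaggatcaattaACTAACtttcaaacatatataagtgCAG
TAD3 intron 2: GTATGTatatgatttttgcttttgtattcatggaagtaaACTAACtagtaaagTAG
SUS1 intron 1: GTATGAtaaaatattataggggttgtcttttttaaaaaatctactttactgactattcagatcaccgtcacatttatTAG
SUS1 intron 2: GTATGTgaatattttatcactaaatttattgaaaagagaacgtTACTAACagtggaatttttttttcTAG
For comparison, the shortest intron within the reading frame of a ribosomal protein gene is that of RPL30 (chrVII:439094-439323, plus strand), which starts with another form and holds TACTAAC.
RPL30: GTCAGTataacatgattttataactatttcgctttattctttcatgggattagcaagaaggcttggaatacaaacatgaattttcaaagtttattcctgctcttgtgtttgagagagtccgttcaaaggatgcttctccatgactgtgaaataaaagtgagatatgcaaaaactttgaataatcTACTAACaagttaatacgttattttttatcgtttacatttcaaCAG

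After 10 min of rapamycin the share of members that changed was close to that of all genes, with more rises than falls among the members and more falls than rises among all genes. Of 148 tested, 45 rose and 35 fell against untreated cells (limma, Benjamini-Hochberg adjusted p under 0.05 over 6127 genes), together 54.1%, beside 57.0% of all genes. By direction, 30.4% of members and 26.8% of all genes rose, and 23.6% and 30.2% fell. Rises of at least 2-fold were found for 7 of 148 members, beside 330 of 6127 genes (5.39%), and falls of that size for 2 of 148, beside 516 of 6127 (8.42%). The median log2 change was 0.08 for members, -0.54 for ribosomal protein genes with introns and -0.02 for all genes. Without 1 of the 10 min libraries, numbered 22, 29 members rose and 20 fell. In a culture, a change in the share of cells that express a gene and a change in RNA per cell cannot be told apart. With each library scaled to its total signal, which adds 0.19 to the median of all genes, 74 of 148 members rose and 14 fell. Of all 6127 genes, 2560 rose and 1152 fell under that scaling, so rises outnumbered falls there too. Falls named below as called at 10 min are read relative to the median gene.

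After 60 min most members had changed. Of 148, 54 rose and 61 fell against untreated cells, together 77.7%, beside 77.1% of all genes (38.6% rose and 38.5% fell). Rises of at least 2-fold were found for 16 of 148 members, a smaller share than the 1020 of 6127 genes (16.6%). Falls of that size were found for 25 of 148, a share close to the 1055 of 6127 genes (17.2%). The median was 0.01 for members and -0.00 for all genes. All 94 ribosomal protein genes with introns fell, with a median log2 change of -4.37. Total-signal scaling adds 0.66 to the median of all genes. It gave 94 rises and 27 falls among the 148 members, beside 3997 and 1125 among 6127 genes. With it 20 called members had the other sign, so the falls named below as called at 60 min are read relative to the median gene.

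Between 10 and 60 min more members fell than rose. Of 148, 36 rose and 65 fell (68.2% called, beside 69.2% of all genes), and by direction 24.3% of members rose beside 35.4% of all genes, while 43.9% fell beside 33.8%. Rises of at least 2-fold numbered 10 of 148, beside 658 of 6127 genes (10.7%), and falls of that size 9 of 148, beside 549 of 6127 (8.96%). The median was -0.17 for members, 0.02 for all genes and -3.83 for ribosomal protein genes with introns. Under total-signal scaling 78 of 148 members rose and 30 fell, beside 3775 and 908 of 6127 genes. The medians were then 0.30 for members and 0.47 for all genes, so the members' median turned sign there but stayed below that of all genes. Both the 10 min and 60 min comparisons use the same untreated libraries, and this one shares the 60 min and 10 min libraries with them.

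**Figure D2:**
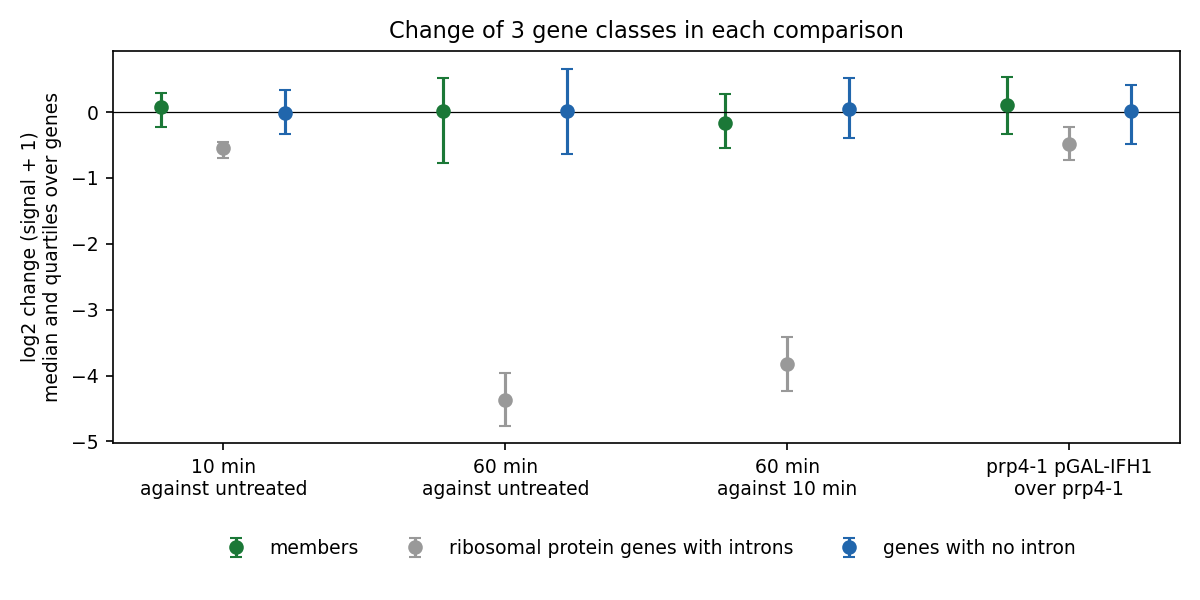
Median log2 change of scaled signal plus 1 (points, vertical axis) with quartiles over genes (bars) in 4 comparisons (horizontal axis), for members, ribosomal protein genes with introns and genes with no intron. Members lie near 0 throughout, while the ribosomal protein genes lie at -4.37 after 60 min against untreated cells.

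The largest called rises at 10 min included those of RRT8, OM14 and YSC84, with log2 changes of 1.48, 1.41 and 1.38. YSC84, an actin-binding protein gene of endocytosis, had 62.2 and 68.42 in untreated cells, 171.7 and 170.6 after 10 min and 229 and 235.2 after 60 min (scaled signal, 1 value per library). Its log2 change was 1.38 at 10 min (SE 0.0721, limma adjusted p = 2.5e-06) and 1.82 at 60 min (SE 0.0721, limma adjusted p = 1.97e-07). The treated libraries of each time lay well above both untreated ones. Its paralogue LSB3 had 386 and 406.7 untreated, 574.8 and 534.3 at 10 min and 399.7 and 367.1 at 60 min, a rise at 10 min (log2 change 0.48, limma adjusted p = 0.00119) and no call at 60 min (-0.05, limma adjusted p = 0.58). Under total-signal scaling it was called higher at 60 min too (0.63, limma adjusted p = 5.62e-05). Whether reads of the pair were shared between the copies is not stated.

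RRT8 and YOL047C (LDS2), whose related products take part in making the spore wall, lie next to each other on chromosome XV (240204 to 241310 and 241614 to 242747). RRT8 had 50 and 59.14 in untreated cells, 161.9 and 146.3 at 10 min and 173.3 and 165.8 at 60 min, with log2 changes of 1.48 (SE 0.0973, limma adjusted p = 8.7e-06) and 1.62 (SE 0.0973, limma adjusted p = 2.03e-06). YOL047C had 3.007 and 3.067 untreated, 3.859 and 3.592 at 10 min and 38.97 and 38.13 at 60 min. Its late log2 change of 3.29 (SE 0.143, limma adjusted p = 3.32e-07) was the highest of the 148 members tested. The neighbours thus rose at different times, RRT8 by 10 min and YOL047C between 10 and 60 min (3.07, limma adjusted p = 1.04e-06).

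**Figure D3:**
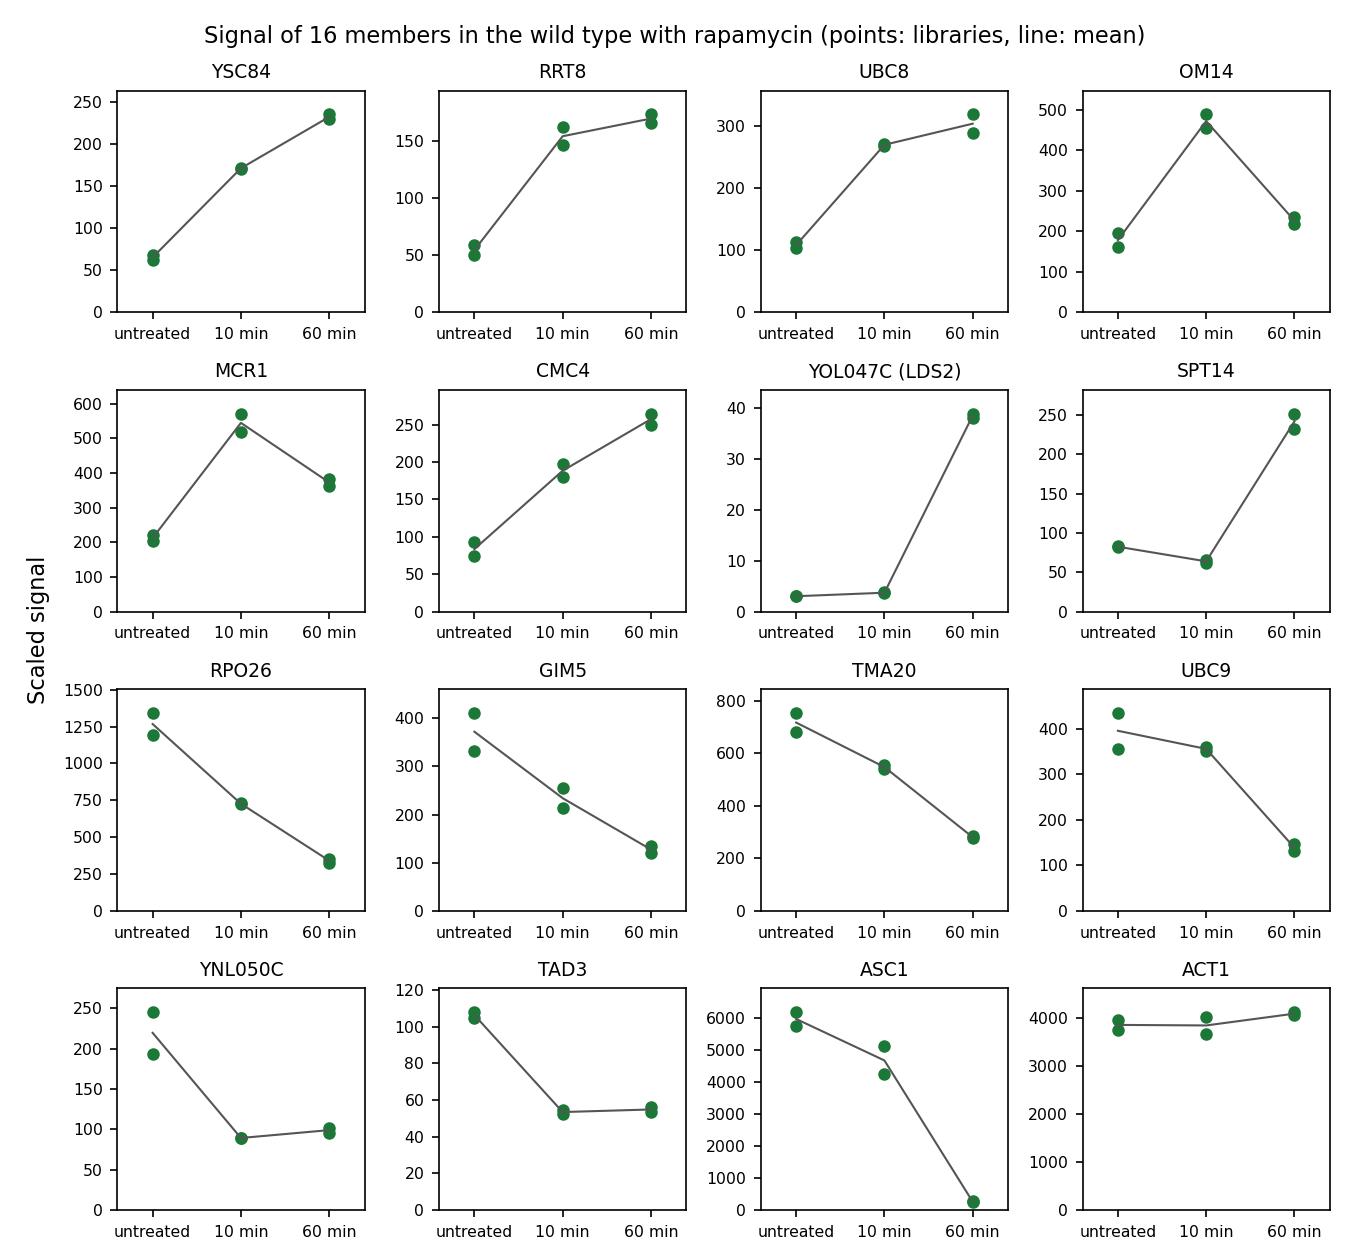
Scaled signal (vertical axes, each from 0) of 16 members in untreated cells and after 10 and 60 min of rapamycin, with a point per library and a line through the means. OM14 and MCR1 are highest at 10 min, YOL047C and SPT14 rise only after it, RPO26 and GIM5 fall step by step, and ACT1 stays between 3668 and 4126.

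Among 10 members listed for mitochondria and small-molecule metabolism, a list that also holds FES1, 4 rose and 1 fell at 10 min. These were 40% and 10%, beside 26.8% and 30.2% of all genes. At 60 min 4 rose and 2 fell (40% and 20%, beside 38.6% and 38.5% of all genes). The list's median log2 changes were 0.10 and 0.12. FES1 was the fall at 10 min (-0.33, limma adjusted p = 0.00572) and 1 of the 2 falls at 60 min (-0.61, limma adjusted p = 0.000106). Under total-signal scaling 8 rose and 0 fell at either time (limma). For all 6127 genes, beside this list and those below, that scaling gave 2560 rises and 1152 falls at 10 min. At 60 min it gave 3997 and 1125. OM14, an outer membrane protein of mitochondria, had 196.5 and 160.2 untreated, 488.8 and 455.1 at 10 min and 235.5 and 217.1 at 60 min. Its rise of 1.41 at 10 min (limma adjusted p = 1.81e-05) was followed by a fall of 1.06 on the log2 scale between 10 and 60 min (limma adjusted p = 6.82e-05). CMC4, a small protein of the mitochondrial intermembrane space, had 92.94 and 74.42, then 197.2 and 179.7, then 264.9 and 249.9 at the 3 times, with log2 changes of 1.17 and 1.62 (limma adjusted p = 6.68e-05 and 4.32e-06). Its model overlaps snR11 on the other strand. APE2, an aminopeptidase, rose more at the later time, with log2 changes of 0.56 at 10 min and 1.63 at 60 min (limma adjusted p = 0.000154 and 1.55e-07). HNT1, a nucleotide hydrolase, fell at 60 min (-0.75, limma adjusted p = 4.87e-05).

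Other mitochondrial members, outside that list, also moved. MCR1, a cytochrome b5 reductase of mitochondria with its intron upstream of the start codon, had 221 and 203.9 untreated, 571.5 and 517.6 at 10 min and 382.2 and 363.3 at 60 min. Its log2 change was 1.35 at 10 min and 0.81 at 60 min (limma adjusted p = 4.65e-06 and 3.75e-05), and the later libraries lay between the untreated and the 10 min ones. YPL109C (CQD1), which acts in the distribution of coenzyme Q, rose by 0.82 and 0.60 on the log2 scale (limma adjusted p = 0.000208 and 0.000567). YDR381C-A (COI1) and YBR255C-A (RCF3), both tied to respiration, moved apart after 10 min, with log2 changes of 1.01 and -1.07 between 10 and 60 min (limma adjusted p = 5.35e-05 and 5.43e-05).

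The 9 ubiquitin and ubiquitin-like conjugation members had calls in both directions at 60 min. At 10 min 4 rose (44.4%) and 0 fell (limma, 0 also at an unadjusted p under 0.05), beside 26.8% and 30.2% of all genes. At 60 min 4 rose and 4 fell (44.4% each, beside 38.6% and 38.5% of all genes). The list's medians were 0.10 and 0.05. Under total-signal scaling the counts were 5 and 0 at 10 min and 6 and 3 at 60 min. DCN1, a ligase for the ubiquitin-like modifier Nedd8, had 61.92 and 55.71 untreated, 69.88 and 73.88 at 10 min and 114.5 and 118.9 at 60 min, and rose between the times (0.69, limma adjusted p = 0.000156). UBC8, a conjugating enzyme for the breakdown of a gluconeogenic enzyme, had 112.8 and 103.6 untreated, 271 and 267.7 at 10 min and 288.2 and 318.4 at 60 min, log2 changes of 1.31 and 1.48 (limma adjusted p = 5.03e-06 and 9.85e-07). The paralogues UBC5 and UBC4 went opposite ways. UBC5 had 118.1 and 101.9 untreated, 202.3 and 193.9 at 10 min and 257.6 and 267.4 at 60 min, whereas UBC4 had 2694 and 2184, then 2061 and 2067, then 1179 and 1176.

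The log2 changes at 60 min were 1.25 for UBC5 and -1.04 for UBC4 (limma adjusted p = 4.13e-06 and 4.22e-05), and they kept their signs under total-signal scaling (UBC4 at -0.36, limma adjusted p = 0.00631). How reads were divided between the close copies is not stated. UBC9, the conjugating enzyme for the small modifier SUMO, fell late, with 355.8 and 434.9 untreated, 359.1 and 352.1 at 10 min and 146.3 and 131 at 60 min (log2 change at 60 min -1.50, limma adjusted p = 5.03e-06). At 10 min its change of -0.15 was not called.

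Of 11 cytoskeleton members, 2 rose and 1 fell at 10 min (18.2% and 9.09%, beside 26.8% and 30.2% of all genes). At 60 min 4 rose and 3 fell (36.4% and 27.3%, beside 38.6% and 38.5% of all genes). The list's medians were 0.11 and 0.09. These counts depend on which genes were listed. Outside the list, YSC84 rose (log2 changes 1.38 and 1.82) and GIM4 fell (-0.29 and -1.28). Total-signal scaling gave 7 rises and 1 fall at 10 min, and 9 and 1 at 60 min. ACT1, the actin gene, had 3749 and 3967 in untreated cells, 4025 and 3668 at 10 min and 4126 and 4059 at 60 min, and its log2 changes of -0.01 and 0.09 were not called (limma adjusted p = 0.965 and 0.399). Under total-signal scaling they were 0.21 and 0.77. ARP2, a subunit of the complex that branches actin filaments, rose by 0.48 and 0.82 on the log2 scale (limma adjusted p = 0.00689 and 0.000224).

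GIM5 and GIM4 encode subunits of prefoldin, which hands new actin and tubulin chains to their folding machine, and both fell. GIM5 had 411.5 and 332.8 untreated, 213.5 and 254.8 at 10 min and 120.3 and 134.8 at 60 min, log2 changes of -0.66 and -1.53 (limma adjusted p = 0.00304 and 1.34e-05). GIM4 had 454.4 and 490.4, then 378 and 395.6, then 186.3 and 200.7, log2 changes of -0.29 and -1.28 (limma adjusted p = 0.0127 and 1.71e-06). At 60 min both stayed lower under total-signal scaling, at -0.85 and -0.61. At 10 min GIM5 was still called lower with that scaling (-0.45, limma adjusted p = 0.0128), while GIM4 was not called (-0.07, limma adjusted p = 0.501). GIM5 overlaps a reading frame on the other strand.

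Of the 21 members of membrane traffic, 7 rose (33.3%, beside 26.8% of all genes) and 2 fell (9.52%, beside 30.2%) at 10 min. Against untreated cells at 60 min, 6 rose and 8 fell (28.6% and 38.1%, beside 38.6% and 38.5% of all genes). Between 10 and 60 min 3 rose and 11 fell (52.4%, beside 33.8% of all genes). Under total-signal scaling the rises and falls were 13 and 1 at 10 min, 13 and 3 at 60 min, and 9 and 4 between the times. YIP3, of transport between the endoplasmic reticulum and the Golgi, had 544.7 and 532 untreated, 614.1 and 543.2 at 10 min and 296.8 and 302.7 at 60 min, a fall of 0.94 on the log2 scale between the times (limma adjusted p = 2.38e-05). It overlaps YNL043C on the other strand. SNC1, a SNARE of secretory vesicles, had 211.9 and 216 untreated, 314.8 and 304.2 at 10 min and 406.1 and 391.7 at 60 min, log2 changes of 0.53 and 0.90 (limma adjusted p = 0.000273 and 5.7e-06). IST1, which regulates the sorting of proteins into the vacuole, rose by 0.61 and 1.09 (limma adjusted p = 0.000165 and 2.52e-06), and it overlaps a reading frame on the other strand. GOT1 and SFT1, both of Golgi transport, had log2 changes of -1.42 and -1.19 at 60 min (limma adjusted p = 6.69e-05 and 2.03e-06), and each of their 60 min libraries, 107.9 and 81.39 for GOT1 and 99.78 and 100.6 for SFT1, lay below all others of the wild type.

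In the list of RNA processing and translation, more members fell than rose with the deposited scaling, but not under total-signal scaling. The list's median lay below that of all genes with either scaling. Of 14, 0 rose and 7 fell (50%) at 10 min (limma), beside 26.8% and 30.2% of all genes. At 60 min 0 rose and 11 fell (78.6%, limma), beside 38.6% and 38.5% of all genes. The list's medians were -0.22 and -0.63. At an unadjusted p under 0.05 as well, 0 rose at either time. These counts depend on which genes were listed. Outside the list, for example, the RNA-related PRP5, HRB1 and MPT5 were called higher at 60 min (log2 changes 1.15, 0.79 and 0.48). The ribosome-associated TMA20 and the mitochondrial ribosomal protein gene YML6, also outside it, were called lower (-1.35 and -0.54). With total-signal scaling 4 of the 14 rose and 3 fell at 10 min (median -0.01, beside 0.19 for all genes). At 60 min 6 rose and 5 fell, and the list's median of 0.05 lay below the 0.66 of all genes. Of all 6127 genes, 2560 rose and 1152 fell at 10 min under that scaling, and 3997 and 1125 at 60 min. ASC1, a core protein of the small ribosomal subunit whose intron holds the small nucleolar RNA snR24, had 5739 and 6172 untreated, 5100 and 4227 at 10 min and 281 and 245.1 at 60 min. Its log2 change of -4.50 at 60 min (SE 0.115, limma adjusted p = 2.11e-08) stood next to the median of -4.37 of the ribosomal protein genes with introns, which the name rule left out.

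NMD2, a factor of nonsense-mediated decay, had 129.7 and 125.6 untreated, 72.34 and 81.04 at 10 min and 91.31 and 94.9 at 60 min, so it was lowest at 10 min (log2 change -0.73, limma adjusted p = 0.000144). TAD3, a subunit of a tRNA deaminase, had 107.9 and 104.6, then 52.38 and 54.48, then 56.12 and 53.55, with log2 changes of -0.98 and -0.94 (limma adjusted p = 1.66e-05 and 8.34e-06). Its change between 10 and 60 min was 0.04 (limma adjusted p = 0.67), and 0.49 under total-signal scaling (limma adjusted p = 0.000546). The TAD3 model overlaps NKP2 and YLR317W on the other strand. POP8, a protein of ribonucleases P and MRP, fell by 0.65 on the log2 scale at 10 min (limma adjusted p = 0.000423) and had 204.1 and 212.9 at 60 min, beside 190.3 and 214.9 untreated (a log2 change of 0.72 under total-signal scaling). LSM7, of the ring that binds the ends of U6 RNA and of decaying messages, fell only after 10 min (60 against 10 min -1.32, limma adjusted p = 7.58e-05), as did the tRNA acetylation factor TAN1 for most of its change (-0.24 and -1.07 at the 2 times, limma adjusted p = 0.0161 and 2.31e-06). Under total-signal scaling the 10 min change of TAN1 was -0.03 and not called (limma adjusted p = 0.795).

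Among 13 members of transcription and chromatin, 4 rose and 7 fell at 10 min (30.8% and 53.8%, beside 26.8% and 30.2% of all genes). At 60 min 3 rose and 7 fell (23.1% and 53.8%, beside 38.6% and 38.5% of all genes). Under total-signal scaling the list's counts were 5 and 2 at 10 min, and 6 and 4 at 60 min. Of all 6127 genes, 2560 rose and 1152 fell at 10 min under that scaling, and 3997 and 1125 at 60 min. The list's counts depend on which genes were listed. Outside it, SRB2 and RPO26 were called lower at 60 min (-1.07 and -1.89), and the transcription factor gene USV1 higher (1.37). NCB2, a subunit of a repressor of transcription initiation, had 522.6 and 491.3 untreated, 287.6 and 266.4 at 10 min and 245.5 and 222.1 at 60 min, log2 changes of -0.87 and -1.11 (limma adjusted p = 5.88e-05 and 5.91e-06). It overlaps YDR396W on the other strand. GCR1, an activator of glycolytic genes, changed by -0.59 and -0.79 (limma adjusted p = 0.000383 and 3.15e-05). ARP9, shared by the SWI/SNF and RSC remodelling complexes, and VPS75, a histone chaperone, fell mainly after 10 min, with log2 changes of -1.15 and -1.14 at 60 min (limma adjusted p = 3.03e-06 and 1.84e-06). VPS75 overlaps CWC25 on the other strand.

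RPO26, a subunit shared by all nuclear RNA polymerases, is in no list and fell step by step. It had 1191 and 1344 untreated, 731.1 and 722.7 at 10 min and 353.9 and 328 at 60 min. The log2 changes were -0.80 (SE 0.0826, limma adjusted p = 0.000114) and -1.89 (SE 0.0826, limma adjusted p = 3.4e-07), and -0.58 and -1.21 under total-signal scaling. TMA20, a ribosome-associated protein, also fell step by step, with 679 and 753.4, then 553.7 and 540.3, then 283.7 and 277.1 at the 3 times (log2 change at 60 min -1.35, limma adjusted p = 1.21e-06).

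Of 8 kinase and phosphatase members, 4 rose and 2 fell at 10 min (50% and 25%, beside 26.8% and 30.2% of all genes). At 60 min 2 rose and 4 fell (25% and 50%, beside 38.6% and 38.5% of all genes). For the list, total-signal scaling gave 5 and 0 at 10 min, and 5 and 1 at 60 min. MRK1, a kinase related to glycogen synthase kinase 3, had a low signal, with 9.557 and 9.509 untreated, 11.13 and 10.88 at 10 min and 4.676 and 4.264 at 60 min (60 against 10 min -1.14, limma adjusted p = 0.00028). PHO85, a cyclin-dependent kinase of nutrient responses, had 234.1 and 201.8 untreated, 325.5 and 323.8 at 10 min and 379.2 and 408.2 at 60 min (log2 changes 0.58 and 0.85, limma adjusted p = 0.000891 and 4.54e-05). MOB2, the partner of the Cbk1 kinase, fell by 0.41 at 10 min, a call lost without library 22 (-0.32, limma adjusted p = 0.0775), and by 1.01 at 60 min (limma adjusted p = 3.52e-05). The protein phosphatase GLC7 fell late (60 against 10 min -0.46, limma adjusted p = 0.000581), a change of 0.01 under total-signal scaling. The 5 members of DNA repair and meiosis had 0 calls at 10 min (limma, 0 also at an unadjusted p under 0.05), beside 57.0% of all genes. At 60 min 4 rose and 1 fell (80% and 20%, beside 38.6% and 38.5% of all genes). With total-signal scaling 3 rose and 0 fell at 10 min, and 4 rose and 0 fell at 60 min. PCH2, of the meiotic checkpoint, had 1.227 and 0.8849 untreated, 2.133 and 1.911 at 10 min and 3.659 and 2.656 at 60 min, with log2 changes of 0.56 and 1.01, of which the later was called (limma adjusted p = 0.134 and 0.0126). The helicase gene HFM1 rose by 0.97 and RFA2, a subunit of the single-strand binding protein of replication, fell by 0.82 on the log2 scale (limma adjusted p = 0.000104 and 1.45e-05).

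In the 12 members of lipid, cell wall and vacuolar functions, 4 rose and 4 fell at 10 min. These were 33.3% each, beside 26.8% and 30.2% of all genes. At 60 min 4 rose and 6 fell (33.3% and 50%, beside 38.6% and 38.5% of all genes). Under total-signal scaling 5 rose and 1 fell at 10 min, and 9 rose and 1 fell at 60 min. SPT14, the catalytic subunit of the first step of GPI anchor synthesis, had 82.93 and 82.25 untreated, 62.26 and 65.64 at 10 min and 251.9 and 232 at 60 min. It fell at 10 min (log2 change -0.36, limma adjusted p = 0.00383) and rose at 60 min (1.54, limma adjusted p = 5.37e-07). EPT1, of phospholipid synthesis, and SCS22, of contacts between membranes, rose by 0.46 and 0.59 at 10 min (limma adjusted p = 0.000844 and 0.0018). NCE101 rose by 1.39 at 60 min (limma adjusted p = 1.36e-05), but the place given with its signal also takes in YJL206C on the same strand, and the share of that gene in the signal was not tested.

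Other members outside the lists were named by size. YNL050C, of unknown function, had 245.5 and 193.9 untreated, 89.67 and 89.2 at 10 min and 96.16 and 102.2 at 60 min, and its log2 change of -1.28 was the lowest at 10 min (limma adjusted p = 3.99e-05). YCL012C fell at 10 min (-0.68, limma adjusted p = 0.0043) and rose between the times (1.63, limma adjusted p = 2.82e-05). URA2, which encodes the enzyme for the first steps of pyrimidine synthesis, changed by -1.09 and -0.78 (limma adjusted p = 9.99e-05 and 0.000308). YHR097C (PAL2), of endocytosis, rose by 1.25 at 10 min and 0.64 at 60 min (limma adjusted p = 3.88e-06 and 7.85e-05), and by 1.47 and 1.32 under total-signal scaling. PRP5, a helicase of spliceosome assembly, and HRB1, an RNA-binding protein of mRNA export, rose between 10 and 60 min, by 1.05 and 1.21 (limma adjusted p = 1.68e-05 and 4.86e-06), and YLR211C (ATG38), of autophagy, rose by 1.28 at 60 min (limma adjusted p = 1.33e-06). YCL002C and YDL012C fell by 1.46 and 1.73 on the log2 scale at 60 min (limma adjusted p = 9.13e-07 and 1.28e-05), and YKR005C rose by 1.01 between 10 and 60 min (limma adjusted p = 0.000539). YJR079W rose by 1.52 at 60 min and by 1.27 between the times (limma adjusted p = 3.13e-05 and 0.000146). The place given with its signal also takes in BNA2 on the same strand, and the share of that gene was not tested.

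**Figure D4:**
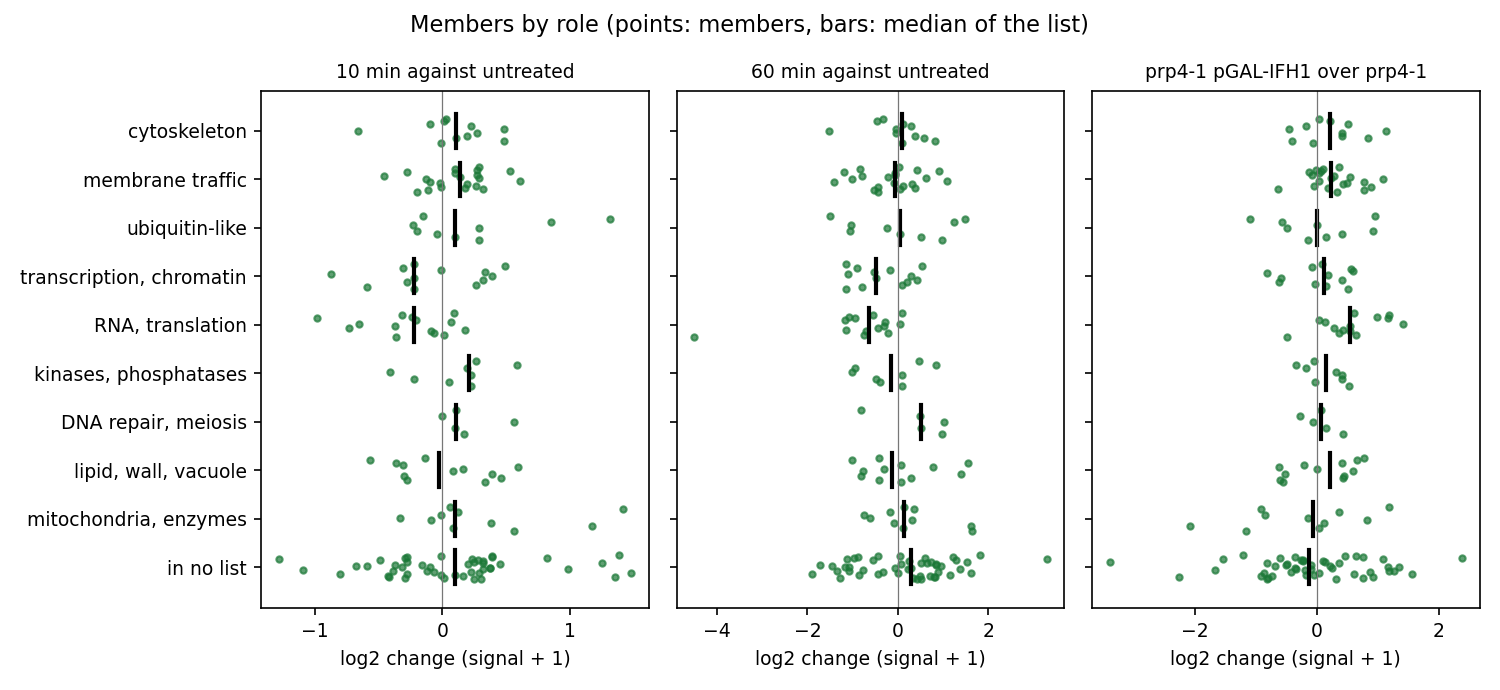
Log2 change of signal plus 1 (horizontal axes) of each member by role (rows, points spread for sight) in 3 comparisons, with the median of each role as a bar. Members of RNA processing and translation have medians of -0.22 and -0.63 under rapamycin (-0.01 and 0.05 under total-signal scaling) and 0.55 in the prp4-1 pair.

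With IFH1 lowered in the prp4-1 background, more members were higher than lower, while ribosomal protein genes with introns were mostly lower. Of 148 members compared, 33 (22.3%) were at least 1.5-fold higher in pGAL1-IFH1 than in prp4-1 cells, beside 18.2% of all genes, and 23 (15.5%) were at least 1.5-fold lower, beside 21.5% of all genes. The median log2 ratio was 0.10 for members, -0.48 for ribosomal protein genes with introns, of which 2 of 94 were higher and 36 lower, and 0.00 for all genes. Each group was 1 library, so the ratios have no replicate check and no test. Total-signal scaling, which adds 0.11 to the median of all genes, gave 41 higher and 17 lower members, beside 1374 higher and 1141 lower of 6222 genes.

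The role with the highest median ratio was RNA processing and translation. Of the 14 members listed for it 6 were at least 1.5-fold higher (42.9%, beside 18.2% of all genes). The number lower was 0, beside 21.5% of all genes, and the median was 0.55. Outside the list, MPT5 was lower (0.597-fold), and HRB1 and TMA20 were higher (1.89-fold and 2.27-fold). POP8 had 61.3 in pGAL1-IFH1 cells, against 22.47 in prp4-1 cells (2.65-fold), and TAD3 had 205.1 against 90.35 (2.26-fold). ASC1, which fell with the ribosomal protein genes under rapamycin, had 2729 against 3795, a log2 ratio of -0.48 that equals the median of those genes. Membrane traffic had 4 higher and 1 lower of 21 members, with a median of 0.24, and among them the sphingolipid synthesis factor KEI1 had 551.4 against 260.6 (2.11-fold).

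YOR318C, a model not matched to the R64 annotation, had 59.18 in pGAL1-IFH1 cells against 10.54 in prp4-1 cells, a log2 ratio of 2.38, the highest of the members with a mean of at least 10. Its model lies on chromosome XV (911784 to 912436, minus strand). RPO26 had 2432 against 826.5 (2.94-fold), YCL002C had 222.2 against 86.54 (2.55-fold), and SRB2, a Mediator subunit, had 285.4 against 117.5 (2.42-fold). RPO26, YCL002C and SRB2 were all called lower at 60 min of rapamycin in the wild type.

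At the other end stood YJR079W, with 3.212 in pGAL1-IFH1 cells against 43.2 in prp4-1 cells, a log2 ratio of -3.39. The place given with its signal also takes in BNA2, on the same strand, so the value cannot be assigned to YJR079W alone. MCR1 had 168 against 804.7 (a log2 ratio of -2.25), CMC4 had 12.24 against 54.52 (-2.07) and YSC84 had 43.45 against 101.9 (-1.21). The transcription factor gene USV1 had 4.991 against 18.01 (-1.67). ACT1 had 4918 against 5143, a log2 ratio of -0.06.

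Members that were higher in 1 experiment tended to be lower in the other. Across 147 members with a value in both, the log2 ratio in the prp4-1 pair and the log2 change in the wild type had a Pearson r of -0.58 at 10 min and -0.55 at 60 min. For the genes with no intron the same values were -0.51 and -0.45 (n = 5825). The 2 experiments share no library, the points of each come from the same few libraries, and genes are not independent replicates.

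**Figure D5:**
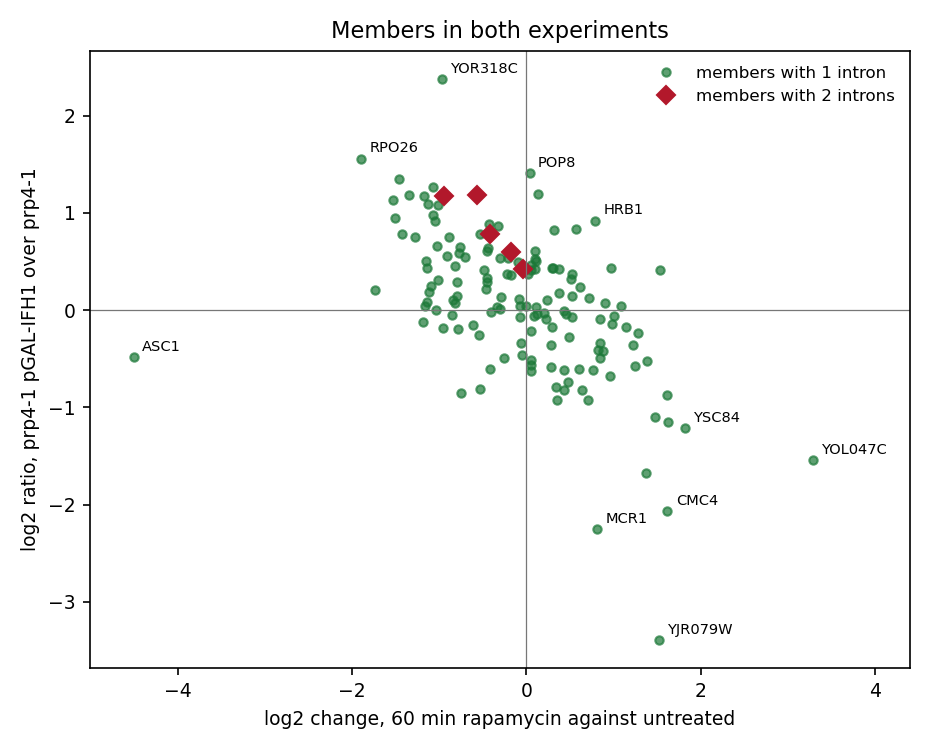
Log2 ratio of pGAL1-IFH1 over prp4-1 cells (vertical axis) against the log2 change at 60 min of rapamycin against untreated cells (horizontal axis), a point per member. The points run from upper left (RPO26 at -1.89 and 1.56) to lower right (YSC84 at 1.82 and -1.21), ASC1 lies apart at -4.50 and -0.48, and the 5 members with 2 introns (diamonds) all lie above 0.

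All 5 members with 2 introns and a ratio were higher in pGAL1-IFH1 cells, a pattern noticed after the values were seen. Of the 143 members with 1 intron, 80 were higher as well. The remaining member with 2 introns, HMRA1, had 0 against 1.368 in prp4-1 cells and no ratio. DYN2, at 1.34-fold, did not reach 1.5-fold, and the models of TAD3 and VMA9 overlap genes on the other strand. YGR001C (EFM5), a methyltransferase for an elongation factor, had 756.3 against 333.2 in prp4-1 cells, SUS1, of histone deubiquitination and mRNA export, had 389.5 against 256.8, VMA9, of the vacuolar proton pump, had 1411 against 823.2, and DYN2, a dynein light chain, had 323.5 against 241.1. With TAD3 their log2 ratios ran from 0.42 to 1.18, with a median of 0.78, beside a median of 0.07 and a range of -3.39 to 2.38 for 143 members with 1 intron. Under rapamycin SUS1 and DYN2 were not called at either time, VMA9 fell at 60 min (-0.41), and YGR001C fell at both (-0.32 and -0.56), while under total-signal scaling both 60 min falls turn sign (0.27 and 0.12).

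By intron sequence, medians lay close for the start of the intron and further apart for the branch motif. Members in which every intron starts GTATGT and those with another start had the same median of 0.10 in the prp4-1 pair, and at 60 min their medians were 0.00 and 0.06. The 38 tested members with an intron lacking TACTAAC had medians of 0.19 at 10 min and 0.31 at 60 min, beside 0.04 and -0.12 for the 110 in which every intron holds it. In the prp4-1 pair the medians were -0.04 over 39 members and 0.15 over 109. The 26 members with an intron of 200 bases or more had a median of -0.12 in that pair, and the 122 with shorter introns 0.18. These are descriptions without a test, over ranges that overlap widely (-2.07 to 1.35 and -3.39 to 2.38 in the prp4-1 pair for members without and with TACTAAC).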

How the data were processed

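Per the submitters' processing notes, the authors mapped reads to sacCer3 with TopHat and Bowtie (versions not given in the sources used here). The authors deposited signal per gene, scaled per library in a way no source used here states. The 8 unscaled columns and 3 group averages were not used. Exon coordinates (unit other) came from the gene models the authors deposited. The library protocol was strand-specific per the labels' protocols, but whether counting used strand is not stated. Of the members, 14 overlap a gene on the other strand. For 13 the place deposited with the signal was wider than the model.

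Columns were assigned to groups by name. limma 3.58.1 (R 4.3.3, intensity trend) was fitted to log2(signal + 1) of the 6 wild-type libraries together, keeping 6127 genes whose mean reached 1, with Benjamini-Hochberg adjustment over all of them. The method was tested on simulated data. For the prp4-1 pair, 6222 genes were compared as log2 ratios (signal plus 1) and read past 1.5-fold. Introns were read from the R64 genome at the models' coordinates, and 146 members matched R64 names. Tables were made with pandas 2.3.3 in Python 3.11.15.

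The members were set by exon number and gene name, with no measured level used. That choice and the 9 role lists, which hold 101 members, were made with earlier results of these data known. Named per wild-type comparison were the 10 largest rises and falls among called members with a mean of at least 10 and no overlap between groups, and in each list the 2 members of smallest p. In the pair, the 5 highest and 5 lowest ratios at a mean of at least 10 are named, and ACT1 in every comparison. Other members are named as examples chosen after their values were seen. Alternatives were other pseudocounts, filters, scalings, variance models and libraries, and, added after seeing the data, the members without SNR17A, SNR17B, ASC1 and YML6.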

Additional observations from a re-analysis of the deposited data

Results flagged for a closer look

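For 6 members the calls at 10 and 60 min had opposite directions, and the difference between the times was itself called by limma (adjusted p under 0.05 in each comparison). SPT14, of GPI anchor synthesis, differed by 1.90 on the log2 scale at 60 min against 10 min (-0.36 at 10 min and 1.54 at 60 min against untreated cells). YCL012C differed by 1.63 (-0.68 and 0.96), HRB1, an mRNA export protein, by 1.21 (-0.42 and 0.79), and MPT5, an RNA-binding regulator of mRNA stability, by 0.91 (-0.43 and 0.48). In the other order, the inner nuclear membrane protein gene SRC1 differed by -0.86 (0.33 and -0.53) and the ubiquitin-conjugating enzyme gene UBC13 by -0.54 (0.29 and -0.25). SRC1 overlaps YML034C-A on the other strand. Under total-signal scaling the 10 min falls of SPT14, HRB1 and MPT5 were not called (limma adjusted p = 0.149, 0.0694 and 0.172). The 60 min falls of SRC1 and UBC13 turned sign there, to 0.14 and 0.43, whereas YCL012C kept both calls (limma adjusted p = 0.0114 and 1.79e-06).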

How the results depend on the processing

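No paired analysis was possible because the columns carry library numbers and no replicate numbers. Scaling each library to its total signal gave 74 members higher and 14 lower at 10 min, 94 and 27 at 60 min, and 78 and 30 between the times, with medians of 0.29, 0.66 and 0.30, and a median of 0.21 in the prp4-1 pair. The counts of all genes under this scaling are given above. ACT1 then stood at 0.21 at 10 min and at 0.05 in the pair, and GLC7 at 0.01 between the times. With the deposited scaling, ACT1 at 10 min moved from -0.01 to 0.04 and 0.06 in fits that left out a library. Other settings moved the median to 0.07 at 10 min (signal plus 5, or a mean of at least 10). At 60 min it moved to -0.04 (mean of at least 10), 0.00 (no filter) and 0.03 (without SNR17A, SNR17B, ASC1 and YML6), and in the pair to 0.13 (mean of at least 10) and 0.11 (without those 4). Past 2-fold in the pair there were 21 members, 13 higher and 8 lower. The cause of these shifts was not tested. Leaving out each library in turn gave 49 to 92 called members at 10 min (29 to 55 higher, 20 to 37 lower; median 0.05 to 0.10), 101 to 115 at 60 min (44 to 53, 57 to 63; -0.07 to 0.02) and 79 to 115 between the times (28 to 43, 51 to 72; -0.19 to -0.13). A group left with 1 library was assumed to vary like the others. Of the named members' values, 412 of 419 at 10 min, 432 of 434 at 60 min and 458 of 461 between the times kept direction and call. In the prp4-1 pair, which has no calls, 40 of 66 values stayed the same, 25 moved and 1 reversed direction.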
